A study of Mus musculus with 9 samples.

Results

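Granzymes, the neutrophil serine proteases and their granule partners are enzymes and pore formers that blood cells store in secretory granules, and 7 of their genes were followed in megakaryocytic cells. They are Gzma, Gzmb, Prf1, Ctsg, Prtn3, Elane and Mpo, represented by 8 probe sets that each carry 1 gene symbol, among 18193 genes tested on the arrays. The members were chosen by the measured Gzmb values, which moved in opposite directions in the 2 knockdowns. The Gzmb values are therefore given as a description without a test, and the other 6 members are given with the test over all genes.

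RNA came from L8057 cells, a mouse megakaryocytic leukaemia line, infected with lentivirus and measured on 9 one-colour oligonucleotide arrays. CBFb_KD cells (3 arrays) carried a short hairpin RNA against CBFb, the subunit of the core binding factor that pairs with the DNA-binding RUNX proteins. Ring1b_KD cells (3 arrays) carried a hairpin against Ring1b, the ubiquitin ligase of Polycomb repressive complex 1 encoded by Rnf2, and Control cells (3 arrays) carried an empty vector. All 3 groups were selected with puromycin and treated with 50 nM of the phorbol ester TPA, both added 48 h after infection, and were harvested 72 h later. The submitters describe biological triplicates of 1 cell line and do not say how many hairpins were used per target or whether cultures were infected separately. The p-values therefore measure the spread between these arrays. The sample labels give the Control as an empty vector while the design text speaks of a control hairpin, so whether Control carried one is not settled here.

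Granzymes are serine proteases that cytotoxic lymphocytes deliver into target cells through the pores made by perforin, and granzyme B, which cuts after aspartate, is also made by mast cells and basophils. Cathepsin G, proteinase 3 and neutrophil elastase are the serine proteases of the azurophil granules of neutrophils, and myeloperoxidase is the heme enzyme stored with them. The proteases are made as inactive precursors, are activated by the dipeptidyl peptidase cathepsin C, and are packed on the proteoglycan serglycin. Granule proteases of this family are not used as markers of megakaryocytes.

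The values are log2 signals after quantile normalization. A gene was called at a Benjamini-Hochberg adjusted p under 0.05 in limma. The targeted transcripts were lower in their own groups, Cbfb by 9.02-fold in CBFb_KD and Rnf2 by 3.17-fold in Ring1b_KD. Of 14 measured megakaryocyte markers 8 had a mean at or above 7.42, the median over all genes, while 0 of 11 neutrophil and promyelocyte markers and 3 of 13 T and NK cell markers did. Among 10 mast cell and basophil markers 5 did. Ring1b_KD array 3 stood apart from its group in several markers, with Clec1b, a platelet lectin receptor, at 7.69 against 9.35 and 9.98 on the other Ring1b_KD arrays. Cma1, a mast cell chymase, stood at 8.51 on that array against 9.82 and 9.75 on the others.

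Gzmb was the member with by far the widest range. Its signal was 7.40, 7.61 and 7.35 on the CBFb_KD arrays, 11.75, 11.27 and 11.95 on the Ring1b_KD arrays, and 8.91, 9.35 and 8.0 on the Control arrays. The 3 groups did not overlap, with every Ring1b_KD array above every Control array and every CBFb_KD array below every Control array. Groups that do not overlap were seen for 31.6% of all genes in CBFb_KD against Control, 32.9% in Ring1b_KD against Control and 33.8% in CBFb_KD against Ring1b_KD, and since Gzmb was chosen for its pattern nothing is read from this. The group means were 7.45 ± 0.14 in CBFb_KD, 11.66 ± 0.35 in Ring1b_KD and 8.76 ± 0.69 in Control (SD, n = 3 each). Signal was 2.47-fold lower in CBFb_KD than in Control (log2 fold change -1.30) and 7.48-fold higher in Ring1b_KD than in Control (log2 fold change 2.90). Between the knockdowns it was 18.5-fold lower in CBFb_KD than in Ring1b_KD (log2 fold change -4.21), the most negative value of all 18193 genes in that comparison. The file gives no detection calls, so a fold against a low signal, for Gzmb as for Prtn3, may be a lower bound. The Control arrays were the most spread, and the value for CBFb_KD against Control was -1.68 without Control array 3 and -1.0 without Control array 2. Both comparisons with Control share these 3 arrays, and the value for Ring1b_KD against Control was 2.53 without Control array 3 and 3.20 without Control array 2.

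**Figure D1:**
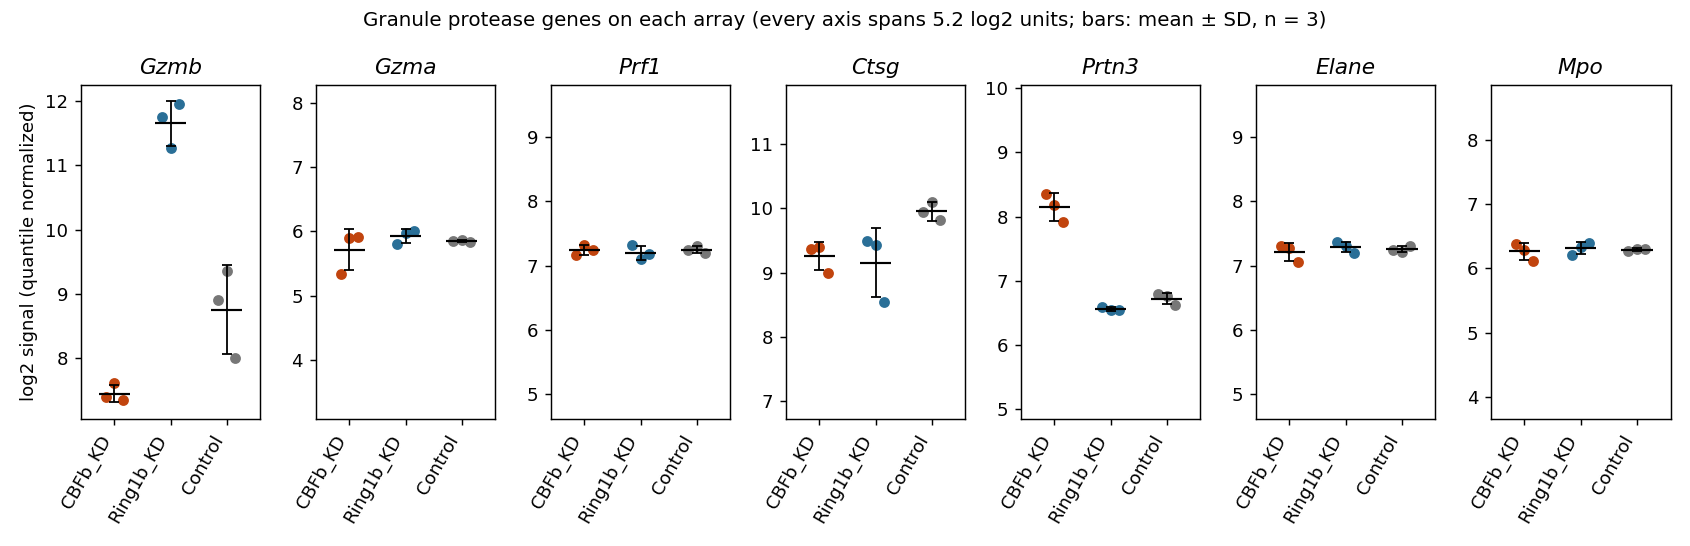
Log2 signal of the 7 genes on each array, by group, with the mean and SD of 3 arrays. Gzmb spans 7.35 to 11.95 with no overlap between groups, Ctsg is highest in Control, Prtn3 is highest in CBFb_KD, and the groups of Gzma, Prf1, Elane and Mpo overlap.

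Gzmb (GRCm38.p6, chr14:56258836-56262334) and Ctsg (chr14:56099885-56102574) lie in 1 cluster of granule protease genes, 156.3 kb apart. The sequences upstream of their starts are shown because the study concerns core binding factors, whose RUNX subunit binds the core letters TGTGGT or TGCGGT. Each is the 250 bases before the RefSeq start, 5′ to 3′ on the strand of the gene. Capitals mark matches on either strand to those letters (TGTGGT reads ACCACA on the other strand) and to GAGGAA, a core bound by the ETS factor PU.1.
Gzmb promoter, chr14:56262335-56262584, minus strand: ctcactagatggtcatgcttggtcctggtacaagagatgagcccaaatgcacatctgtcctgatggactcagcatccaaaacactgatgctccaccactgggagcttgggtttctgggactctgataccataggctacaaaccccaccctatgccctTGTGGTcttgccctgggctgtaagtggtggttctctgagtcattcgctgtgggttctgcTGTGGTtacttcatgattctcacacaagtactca
Ctsg promoter, chr14:56102575-56102824, minus strand: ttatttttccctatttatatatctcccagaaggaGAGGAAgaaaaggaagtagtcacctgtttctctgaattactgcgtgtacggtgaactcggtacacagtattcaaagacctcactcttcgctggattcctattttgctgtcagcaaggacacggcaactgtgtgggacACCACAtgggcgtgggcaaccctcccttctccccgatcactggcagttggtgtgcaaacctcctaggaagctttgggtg
The Gzmb window holds 2 matches to TGTGGT, starting 93 and 34 bases before the gene start, and none to GAGGAA. The Ctsg window holds 1 RUNX match on the opposite strand, at 79 to 74 bases before the start, and 1 GAGGAA match at 216 bases. Windows with at least 1 RUNX match made up 18.6% of 32851 windows of the same length upstream of all gene starts, and 2.01% had at least 2. A match is a description of the letters and not a measured binding site.

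Ctsg, which encodes cathepsin G, was lower in both knockdowns than in Control. Its signal was 9.37, 9.41 and 9.0 in CBFb_KD, 9.49, 9.44 and 8.54 in Ring1b_KD, and 9.95, 10.10 and 9.81 in Control. All 6 knockdown arrays were below all 3 Control arrays, and the knockdown groups overlapped. Ctsg fell in CBFb_KD (9.26 ± 0.22 in CBFb_KD against 9.96 ± 0.15 in Control, SD, n = 3, log2 fold change -0.69, SE 0.20, limma adjusted p = 0.0363). It also fell in Ring1b_KD, where the mean was 9.16 ± 0.53 (log2 fold change -0.80, SE 0.20, limma adjusted p = 0.0231). The difference between CBFb_KD and Ring1b_KD was 0.11 with a 95% interval of -0.34 to 0.55 (limma adjusted p = 0.77). The opposite movement of Gzmb was thus not seen in its cluster partner.

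The Ctsg calls depended on the arrays used. The CBFb_KD call was lost without any 1 CBFb_KD or Control array, with values from -0.77 to -0.57 and limma adjusted p from 0.0555 to 0.144. Without Ring1b_KD array 3, the array that stood apart, the value in Ring1b_KD was -0.49 (limma adjusted p = 0.0266), and the value in CBFb_KD stayed at -0.69 with a smaller adjusted p of 0.00116 in limma. The Ring1b_KD call was lost without Control array 1 (limma adjusted p = 0.061) or Control array 2 (limma adjusted p = 0.0918).

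Prtn3, which encodes proteinase 3, rose in CBFb_KD alone of the 2 knockdowns. Its signal was 8.35, 8.18 and 7.91 in CBFb_KD, 6.59, 6.54 and 6.54 in Ring1b_KD, and 6.79, 6.76 and 6.62 in Control. The CBFb_KD arrays lay more than 1 unit above all others. The increase over Control was 2.68-fold (log2 fold change 1.42, SE 0.10, 95% interval 1.2 to 1.64, limma adjusted p = 3.76e-06). In Ring1b_KD the log2 fold change was -0.17 (95% interval -0.39 to 0.06, limma adjusted p = 0.332), so Prtn3 was not called there, although its 3 Ring1b_KD arrays lay below its 3 Control arrays. Groups that do not overlap in this way were seen for 32.9% of all genes in Ring1b_KD against Control. The difference between the knockdowns was itself called (log2 fold change 1.59 for CBFb_KD over Ring1b_KD, limma adjusted p = 9.42e-07).

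Elane, the neutrophil elastase gene, lies 3.1 kb downstream of Prtn3 with 0 protein-coding genes between them. Their upstream sequences are shown because Prtn3 was called in CBFb_KD and its neighbour was not.
Prtn3 promoter, chr10:79879417-79879666, plus strand: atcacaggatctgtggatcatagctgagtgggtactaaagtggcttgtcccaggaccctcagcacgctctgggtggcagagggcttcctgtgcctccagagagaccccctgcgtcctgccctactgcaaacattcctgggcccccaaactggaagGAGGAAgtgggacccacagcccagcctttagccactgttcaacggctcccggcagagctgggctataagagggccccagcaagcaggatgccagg
Elane promoter, chr10:79886062-79886311, plus strand: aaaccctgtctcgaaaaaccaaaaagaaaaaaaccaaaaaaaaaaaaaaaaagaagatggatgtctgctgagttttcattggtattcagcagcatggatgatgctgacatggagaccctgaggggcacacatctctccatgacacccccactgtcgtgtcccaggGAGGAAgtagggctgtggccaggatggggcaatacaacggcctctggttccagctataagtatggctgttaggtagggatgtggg
Each window holds 1 GAGGAA match, starting 95 bases before the start of Prtn3 and 85 bases before that of Elane, and neither holds a RUNX match. GAGGAA on either strand was present in 23.3% of all windows. TTGCNNAA, a core of the C/EBP factors, was in 9.56% of all windows and in 0 of the 7 members. Over the 7 members, 4 windows held a RUNX match and 4 held GAGGAA. The other members with a RUNX match were Gzma and Prf1, and the other with GAGGAA was Mpo.

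Elane stood at 7.30, 7.28 and 7.06 in CBFb_KD, 7.37, 7.30 and 7.21 in Ring1b_KD, and 7.25, 7.21 and 7.31 in Control. The groups overlapped, and the log2 fold change over Control was -0.04 in CBFb_KD (95% interval -0.23 to 0.14) and 0.03 in Ring1b_KD (95% interval -0.15 to 0.22). Mpo, the myeloperoxidase gene, ran from 6.12 to 6.39 over the 9 arrays. Its log2 fold change was -0.03 in CBFb_KD (95% interval -0.21 to 0.16) and 0.02 in Ring1b_KD (95% interval -0.16 to 0.21). For both genes the intervals leave room for changes of about 0.2 and exclude changes as large as that of Prtn3 in CBFb_KD.

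Gzma, the gene of the tryptase-like granzyme A on chromosome 13, ran from 5.34 to 6.01. The lowest value was on CBFb_KD array 1, with the other 8 arrays between 5.80 and 6.01. Its log2 fold change was -0.14 in CBFb_KD (95% interval -0.41 to 0.14) and 0.08 in Ring1b_KD (95% interval -0.20 to 0.35). Prf1, the perforin gene on chromosome 10, had 2 probe sets, with ranges of 7.10 to 7.32 and 6.23 to 6.48. Neither was called, with log2 fold changes in CBFb_KD of 0.00 and -0.04 and in Ring1b_KD of -0.05 and -0.07. All 4 genes with no call had means under the median over all genes, and a gene without detectable transcript cannot be told apart here from one with a low, steady level.

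**Figure D2:**
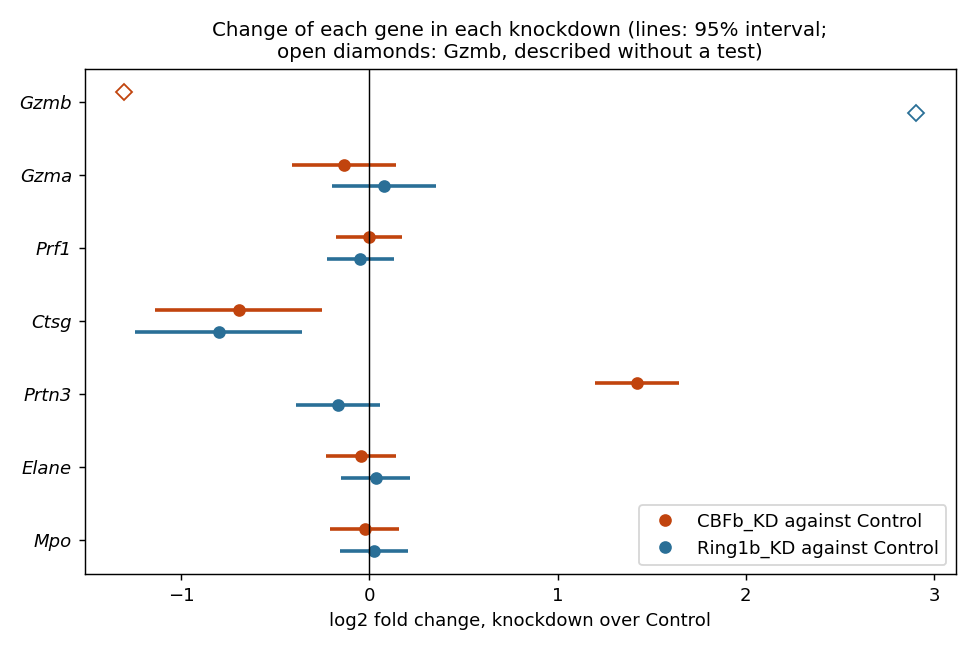
Log2 fold change of each gene in CBFb_KD and Ring1b_KD over Control, with 95% intervals from limma and open diamonds for Gzmb, which has no interval. Gzmb lies at -1.30 and 2.90, Ctsg below 0 in both, Prtn3 at 1.42 in CBFb_KD, and the intervals of Gzma, Prf1, Elane and Mpo include 0 in both.

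Of the 6 members other than Gzmb, 2 were called in CBFb_KD against Control, where 15.4% of all genes were called. By direction, 1 of the 6 was higher (7.78% of all genes) and 1 lower (7.6% of all genes). In Ring1b_KD against Control 1 of 6 was called, where 12.2% of all genes were, with 0 higher (5.66% of all genes) and 1 lower (6.57% of all genes). In CBFb_KD against Ring1b_KD 1 of 6 was called, where 19.4% of all genes were, with 1 higher (10.1% of all genes) and 0 lower (9.31% of all genes). The arrays of the groups did not overlap for 2 of the 6 in CBFb_KD against Control, for 2 in Ring1b_KD against Control and for 1 in CBFb_KD against Ring1b_KD, where the shares over all genes are those given with Gzmb. Counts of 1 or 2 among 6 genes give no ground for setting the members apart from all genes. The median log2 fold change of the 7 members was -0.04 in CBFb_KD and 0.02 in Ring1b_KD, against -0.01 and 0.01 over all genes. The members thus did not share a direction, and the median of the set hides changes in single genes.

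The Gzmb cluster on chromosome 14 also holds other granzymes and mast cell proteases. Of 11 measured neighbours 0 rose and 1 fell in CBFb_KD, or 9.09% of the list beside 15.4% of all genes. In Ring1b_KD 0 were called (1 on the values as deposited or without Ring1b_KD array 3), beside 12.2% of all genes. Counts this small give no ground for setting the neighbours apart from all genes. Gzmc, which lies 17.2 kb from Gzmb with 0 protein-coding genes between, stood 0.05 above Control in CBFb_KD on the log2 scale (limma adjusted p = 0.813) and 0.12 above it in Ring1b_KD (limma adjusted p = 0.463). The related granzyme genes Gzmd, Gzme, Gzmf, Gzmg and Gzmn had values from 0.04 to 0.16 in CBFb_KD and from -0.21 to 0.33 in Ring1b_KD. Sequences of these granzymes are close relatives, so signal may be shared between their probe sets.

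The called neighbour was Mcpt1, a mast cell chymase, with signals of 6.41, 6.34 and 6.54 in CBFb_KD, 7.19, 7.09 and 7.07 in Ring1b_KD, and 6.52, 6.91 and 7.05 in Control. The CBFb_KD and Control arrays overlapped for it. Mcpt1 fell in CBFb_KD against Control (log2 fold change -0.39, limma adjusted p = 0.0368), and leaving out CBFb_KD array 1 or 2, Control array 2 or 3, or Ring1b_KD array 2 ended that call. It was lower in CBFb_KD than in Ring1b_KD by a log2 fold change of -0.68 (limma adjusted p = 0.00127). With the replicate number as a block, 3 of the 11 neighbours were called in CBFb_KD against Control, where 3142 of 18193 genes were. Cma1, at the other end of the cluster, was higher in CBFb_KD than in Ring1b_KD (1.07 on the log2 scale, limma adjusted p = 0.0221), and leaving out CBFb_KD array 1 or 3 ended that call. Without Ring1b_KD array 3 the Cma1 value was 0.64. Cma1 thus ran against Gzmb and Mcpt1 in that comparison. Outside the cluster, the log2 fold change of Gzmk was 0.00 in CBFb_KD and 0.14 in Ring1b_KD, that of Gzmm was 0.05 in CBFb_KD and 0.21 in Ring1b_KD, and none of the 4 values was called.

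**Figure D3:**
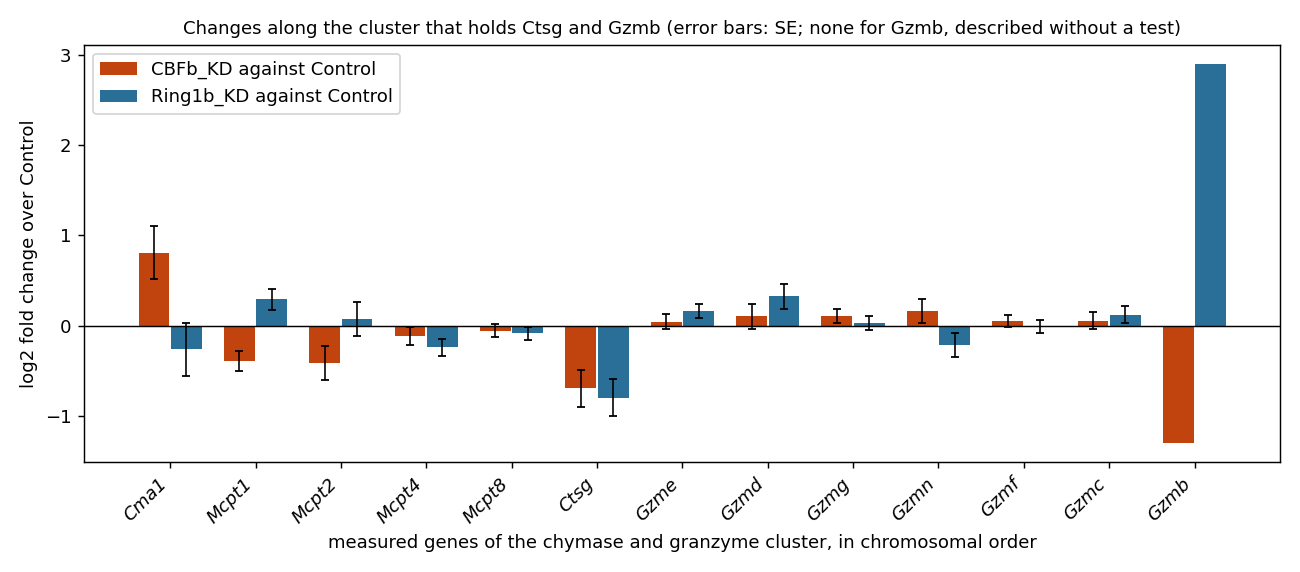
Log2 fold change over Control of the 13 measured genes of the chymase and granzyme cluster, in chromosomal order, for CBFb_KD and Ring1b_KD, with standard errors except for Gzmb. The bars of Gzmb (-1.30 and 2.90) stand apart from those of Gzmc beside it (0.05 and 0.12).

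Of 16 measured genes that mature and pack granule proteases, 4 rose and 1 fell in CBFb_KD, or 31.2% of the list beside 15.4% of all genes. In Ring1b_KD 3 rose and 6 fell, or 56.2% of the list beside 12.2% of all genes. Most of these 16 genes had means above 7.42, the median over all genes. Both shares thus set a bright list beside genes of every brightness, and no enrichment is read from them. The Ring1b_KD count of 9 was 5 without any 1 Control array or without Ring1b_KD array 2. The median log2 fold change was 0.18 in CBFb_KD and -0.17 in Ring1b_KD, against -0.01 and 0.01 over all genes.

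Ctsl, a lysosomal cysteine protease, was 13.22, 13.66 and 13.18 in CBFb_KD, 11.71, 12.02 and 11.60 in Ring1b_KD, and 12.59, 12.68 and 12.37 in Control. The groups did not overlap, and the order was the reverse of that of Gzmb. Ctsl rose in CBFb_KD (log2 fold change 0.81, limma adjusted p = 0.00122) and fell in Ring1b_KD, where its log2 fold change was -0.77 (limma adjusted p = 0.0028). The difference between the knockdowns was called (1.58, limma adjusted p = 8.35e-06). Its other probe set was not called, with -0.10 in CBFb_KD and -0.13 in Ring1b_KD on the log2 scale, and with the probe sets averaged the log2 fold change of Ctsl was 0.35 in CBFb_KD and -0.45 in Ring1b_KD, both still called.

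Nkg7, a granule membrane protein of cytotoxic lymphocytes, was 11.71, 11.64 and 11.62 in CBFb_KD, 10.52, 10.51 and 10.08 in Ring1b_KD, and 11.70, 11.45 and 10.95 in Control. It fell in Ring1b_KD (-1.0 on the log2 scale, limma adjusted p = 0.00196), where Gzmb signal was highest, and its value in CBFb_KD was 0.29 (limma adjusted p = 0.31). Lamp1, a lysosomal membrane protein, also fell in Ring1b_KD (-0.42 on the log2 scale, limma adjusted p = 0.000466). Vamp8, a SNARE of granule release, rose in Ring1b_KD by 0.30 on the log2 scale (limma adjusted p = 0.0134), and that call was lost without Control array 3, on the values as deposited (0.20, limma adjusted p = 0.0896), and with array medians aligned (0.12, limma adjusted p = 0.429). In CBFb_KD, Unc13d, which primes granules for release, rose by 0.69 and Stx11, a syntaxin of cytotoxic granules, by 0.48, while Gnptab, which makes the mannose 6-phosphate tag, had a log2 fold change of -0.57 (limma adjusted p = 0.000674, 0.006 and 0.00129).

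Ctsc and Srgn are named for their roles after their values were seen. Ctsc, which encodes the activating cathepsin C, was not called, with log2 fold changes of -0.28 in CBFb_KD (limma adjusted p = 0.193) and -0.30 in Ring1b_KD (limma adjusted p = 0.146). Srgn, the serglycin gene, rose in both, by 0.28 in CBFb_KD (limma adjusted p = 0.0142) and 0.30 in Ring1b_KD (limma adjusted p = 0.0137) on the log2 scale.

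Of 9 measured inhibitors of granule proteases 3 rose and 0 fell in CBFb_KD, where 7.78% of all genes rose. The median of the 9 log2 fold changes was 0.15 there, against -0.01 over all genes. Slpi, a secreted inhibitor of neutrophil elastase and cathepsin G, was 11.02, 11.06 and 10.43 in CBFb_KD, 8.76, 9.34 and 8.78 in Ring1b_KD, and 9.60, 9.54 and 9.13 in Control. All CBFb_KD arrays were above all others, a 2.67-fold rise over Control (log2 fold change 1.41, limma adjusted p = 0.000297). The value in Ring1b_KD was -0.47 (limma adjusted p = 0.133), and the difference between the knockdowns was called (1.88, limma adjusted p = 2.75e-05). Serpinb9, a serpin that inhibits granzyme B, rose in CBFb_KD by 0.67 (limma adjusted p = 0.000564) and had a value of -0.10 in Ring1b_KD (limma adjusted p = 0.557). Serpinb6b rose in CBFb_KD by 0.70 (limma adjusted p = 0.0025). In Ring1b_KD 1 of the 9 was called, or 11.1% of the list beside 12.2% of all genes. It was Serpinb9b, which fell by 0.47 on the log2 scale (limma adjusted p = 0.00671). Without Ring1b_KD array 2 or 3, 2 were called. Of 8 measured azurophil granule partners 1 fell in CBFb_KD and 1 rose in Ring1b_KD, each 12.5% of the list, beside 15.4% and 12.2% of all genes called. These were the lysosomal hydrolases Gusb (-0.41, limma adjusted p = 0.0194) and Man2b1 (0.38, limma adjusted p = 0.0156). The Gusb call was lost without CBFb_KD array 2 or any 1 Control array, and the Man2b1 call without Control array 3 or Ring1b_KD array 1, on the values as deposited and with array medians aligned (0.19, limma adjusted p = 0.256).

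Among 19 measured transcription factors listed as regulators of granule protease genes or of the cells that make them, 3 rose and 2 fell in CBFb_KD, or 26.3% of the list beside 15.4% of all genes. In Ring1b_KD 1 rose and 1 fell, or 10.5% of the list, below the 12.2% of all genes. Prdm1, which encodes Blimp-1, a factor of cytotoxic T cells, was 7.58, 8.01 and 7.52 in CBFb_KD, 6.72, 6.57 and 6.70 in Ring1b_KD, and 5.88, 5.97 and 5.55 in Control. The groups did not overlap, and both knockdowns were above Control. Prdm1 rose 3.74-fold in CBFb_KD (limma adjusted p = 3e-06) and 1.82-fold in Ring1b_KD (limma adjusted p = 0.00148), and its CBFb_KD level exceeded that in Ring1b_KD by 1.04 on the log2 scale (limma adjusted p = 0.000159). Gzmb, in contrast, was below Control in 1 and above it in the other.

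Bhlhe40, a basic helix-loop-helix repressor, fell in Ring1b_KD (-0.74 on the log2 scale, limma adjusted p = 0.00621). Ikzf1, the Ikaros gene, fell in CBFb_KD (-0.70, limma adjusted p = 0.00157). Stat3 rose in CBFb_KD by 0.25 (limma adjusted p = 0.0183), and leaving out CBFb_KD array 3 or Control array 3 ended that call, as did a fit with array medians aligned and one with probe sets averaged (0.15, limma adjusted p = 0.137). Runx1, the partner of CBFb, rose by 1.36 in CBFb_KD against Control (limma adjusted p = 0.000216) and exceeded its Ring1b_KD level there by 1.09 (limma adjusted p = 0.000786). Its other probe sets ran from 0.02 to 1.61 in CBFb_KD against Control and from -0.27 to 1.17 between the knockdowns, the lowest not called in either. The count of 5 in CBFb_KD was 3 without Control array 3, and the 7 called between the knockdowns were 3 without Ring1b_KD array 3.

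**Figure D4:**
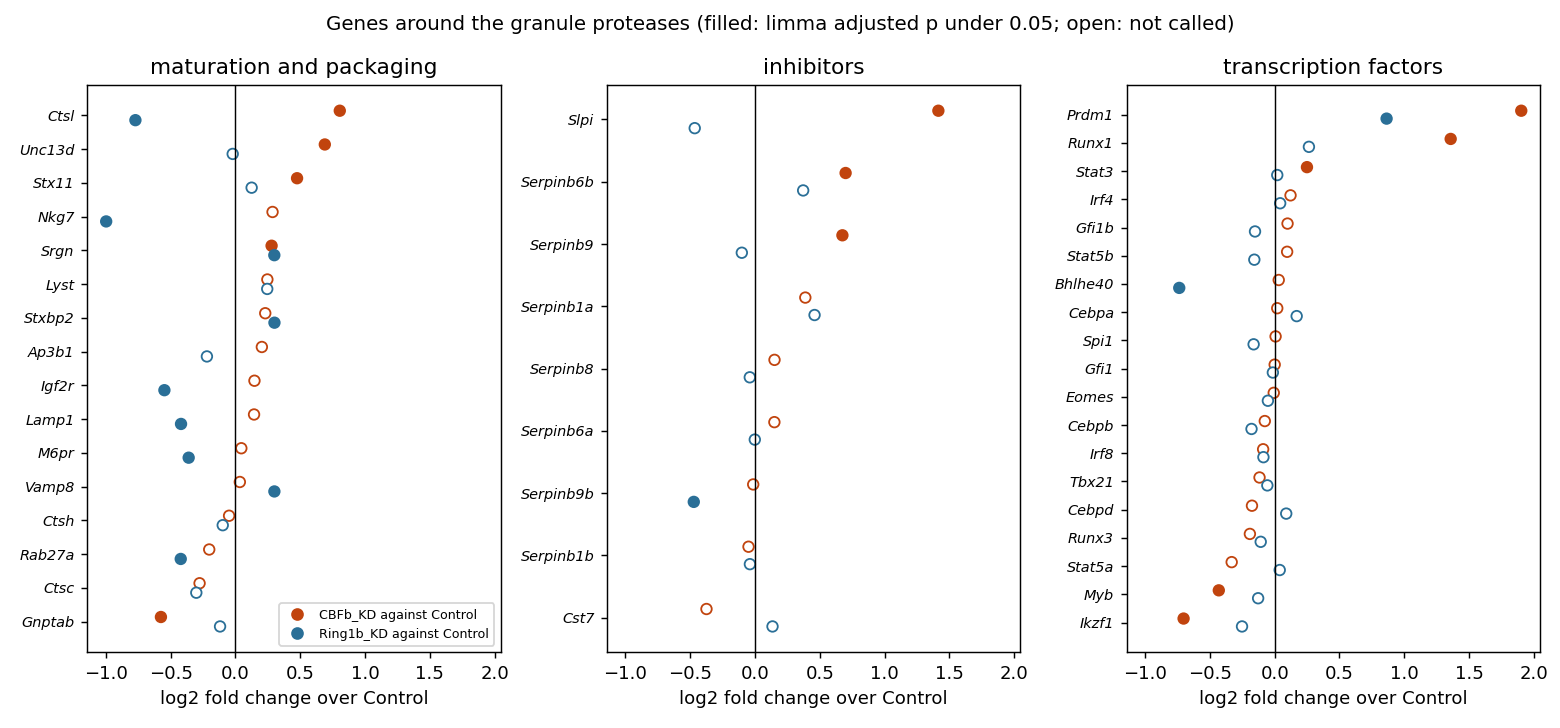
Log2 fold change over Control in CBFb_KD and Ring1b_KD for the genes of 3 groups around the granule proteases, with called genes filled. Ctsl is called at 0.81 in CBFb_KD and -0.77 in Ring1b_KD, Slpi is highest among the inhibitors in CBFb_KD at 1.41, and Prdm1 is called at 1.90 and 0.86.

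Markers of other blood cells that use these proteases were measured on the same arrays. All samples were of 1 cell line, so these markers describe expression within that line and not a mixture of cell types. In such bulk samples fewer cells that express a gene and less RNA per cell cannot be told apart. The summed linear signal of 13 T and NK cell markers was 1780 to 2084 in CBFb_KD, 2098 to 2241 in Ring1b_KD and 1707 to 1900 in Control, so the Ring1b_KD arrays, where Gzmb was highest, lay above the Control arrays. Zap70 carried much of that gap, and the other 12 markers summed to 1117 to 1184 in CBFb_KD, 1220 to 1264 in Ring1b_KD and 1122 to 1156 in Control. Within that list 2 of 13 rose and 0 fell in Ring1b_KD, or 15.4% of the list beside 12.2% of all genes called. Zap70 rose by 0.50 (limma adjusted p = 0.0193) and Cd8a by 0.31 (limma adjusted p = 0.0347). The Zap70 call was lost without Control array 2 or 3 or Ring1b_KD array 2 or 3, and the Cd8a call without any 1 Control or Ring1b_KD array. The other probe sets of Zap70 stood at -0.16 and -0.06 in Ring1b_KD, and with a gene's probe sets averaged the values were 0.10 for Zap70 (limma adjusted p = 0.367) and 0.12 for Cd8a (limma adjusted p = 0.161). Cd3e, a subunit of the T cell receptor complex, was 7.77, 7.60 and 7.74 in CBFb_KD, 7.78, 7.97 and 7.96 in Ring1b_KD, and 7.77, 7.79 and 7.80 in Control. A link between these marker genes and the Gzmb values was not tested.

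The 11 neutrophil and promyelocyte markers summed to 772.9 to 785.5 in CBFb_KD, 769 to 798.7 in Ring1b_KD and 746.8 to 761.5 in Control. Of the 11, 0 were called in any of the 3 comparisons. The share of all genes called was 15.4% in CBFb_KD against Control, 12.2% in Ring1b_KD against Control and 19.4% between the knockdowns. The sums of CBFb_KD, where Prtn3 was called, overlapped with those of Ring1b_KD, where it was not, and both lay above Control. Of these 11 markers 0 had a mean at or above 7.42, the median over all genes. The sums therefore add up low signals, and no difference in neutrophil marker RNA is read from them. A link between these marker genes and the Prtn3 values was not tested. The 8 monocyte and macrophage markers had 0 calls against Control in either knockdown. The 14 megakaryocyte markers summed to 41950 to 42760 in CBFb_KD, 20300 to 36130 in Ring1b_KD and 26380 to 33280 in Control. Pf4 was the brightest of the 14 and carried much of these sums. Its signal was 14.77, 14.67 and 14.75 in CBFb_KD, 14.40, 14.67 and 13.76 in Ring1b_KD, and 14.57, 14.40 and 14.28 in Control. In CBFb_KD 6 were higher and 0 lower, or 42.9% of the list beside 15.4% of all genes called. In Ring1b_KD 0 were higher and 1 lower, or 7.14% beside 12.2% of all genes. CBFb_KD, where Prtn3 was highest and Gzmb lowest, therefore also had the highest megakaryocyte sums, and the part of this difference in the protease values was not tested.

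The 10 mast cell and basophil markers summed to 9283 to 9707 in CBFb_KD, 6522 to 7855 in Ring1b_KD and 7146 to 9243 in Control, with members going both ways. Gata2 was the brightest of the 10 and carried much of these sums. Its mean was 12.38 in CBFb_KD, 11.55 in Ring1b_KD and 12.15 in Control. Gata2 fell in Ring1b_KD (-0.60 on the log2 scale, limma adjusted p = 0.00153), and its value in CBFb_KD was 0.23 (limma adjusted p = 0.129). Fcer1a, the alpha chain of the IgE receptor, rose in Ring1b_KD (1.61 on the log2 scale, limma adjusted p = 0.00447) with 8.28, 7.59 and 6.88 in Ring1b_KD against 6.60, 5.65 and 5.67 in Control. The beta chain gene Ms4a2 fell in both knockdowns, where its log2 fold change was -1.92 for CBFb_KD (limma adjusted p = 0.000144) and -1.49 for Ring1b_KD (limma adjusted p = 0.00154). Tested over all probe sets, its other probe set stood at -1.06 in CBFb_KD (limma adjusted p = 0.0259). In Ring1b_KD that probe set was not called (-0.66, limma adjusted p = 0.163). Hdc, which makes histamine, rose by 1.11 in CBFb_KD (limma adjusted p = 0.00814) and also, by 0.99, in Ring1b_KD (limma adjusted p = 0.0217), and the Ring1b_KD call was lost without Ring1b_KD array 1 or 3 or any 1 Control array. Without CBFb_KD array 2 the Hdc value in CBFb_KD was 0.70. The other Hdc probe set, tested over all probe sets, rose by 2.17 in CBFb_KD (limma adjusted p = 0.00228). In Ring1b_KD that probe set rose by 1.9 (limma adjusted p = 0.00698). Kit fell in CBFb_KD (-0.39 on the log2 scale, limma adjusted p = 0.0337). Its value in Ring1b_KD was 0.34 and not called (limma adjusted p = 0.0701). Dropping array 2 or 3 of CBFb_KD or array 1 or 2 of Control undid the Kit call, as did testing all probe sets. Fcer1a therefore moved with Gzmb in Ring1b_KD and Kit moved with it in CBFb_KD. Gata2 ran against Gzmb in Ring1b_KD. Ms4a2 fell in both knockdowns, as Ctsg did, and so moved with Gzmb in CBFb_KD and against it in Ring1b_KD. Hdc rose in both, against Gzmb in CBFb_KD and with it in Ring1b_KD. The part of mast cell genes in these values was not tested.

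The 5 genes whose pattern was most like that of Gzmb were ranked by Pearson correlation over the 9 arrays, among 315 genes with group means at least 1 log2 unit apart and a highest group mean at or above the median gene. They were Trio (r = 0.99), a guanine nucleotide exchange factor, Rcn3 (r = 0.987), a calcium-binding protein of the endoplasmic reticulum, Sfrp4 (r = 0.975), a secreted modulator of Wnt signals, Galc (r = 0.964), the lysosomal galactosylceramidase, and Ss18l2 (r = 0.94). These correlations describe 9 arrays in 3 groups that share a normalization, and the group differences carry most of them. Trio was 8.71, 8.99 and 8.97 in CBFb_KD, 10.54, 10.54 and 10.69 in Ring1b_KD, and 9.54, 9.84 and 9.11 in Control. Like Gzmb, it was highest in Ring1b_KD, lowest in CBFb_KD, and within Control lowest on array 3 and highest on array 2. The changes of these 5 genes were smaller than those of Gzmb, from -0.68 to -0.26 in CBFb_KD and from 0.65 to 1.09 in Ring1b_KD against Control. None of the 5 is a granule protease gene. The filter on group means left out Gzma, Prf1, Elane, Mpo and Ctsg beforehand, so nothing is read from their absence.

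**Figure D5:**
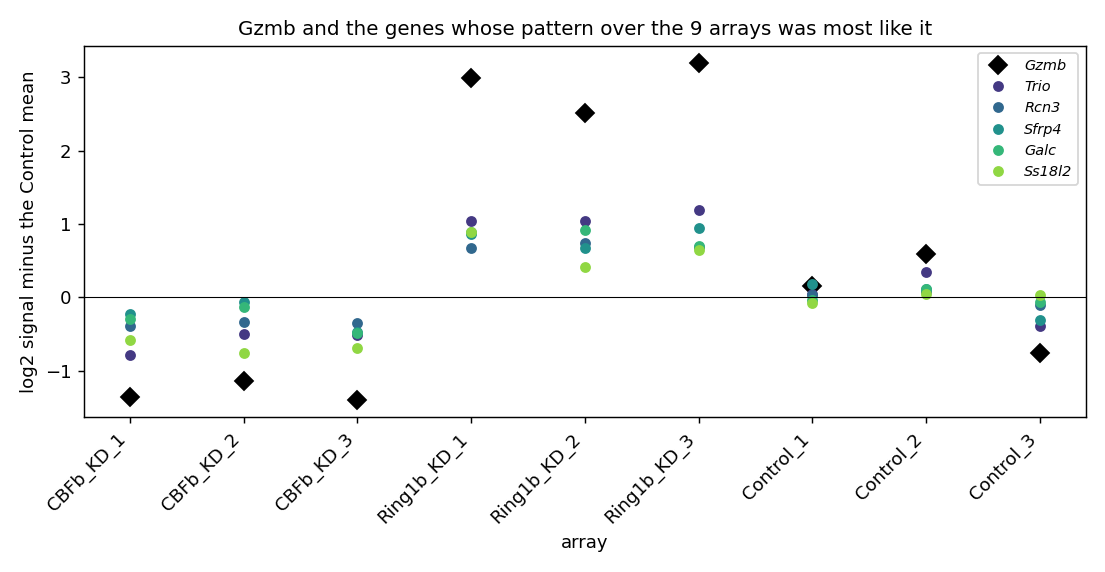
Log2 signal minus the Control mean on each of the 9 arrays for Gzmb (diamonds) and the 5 genes most like it. All 6 genes lie above 0 on the Ring1b_KD arrays and below 0 on the CBFb_KD arrays, and Gzmb, at 11.75, 11.27 and 11.95 in Ring1b_KD, lies farthest from its Control mean there.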

How the data were processed

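Per the labels' protocols, oligo-dT primed cDNA of total RNA was transcribed into biotinylated cRNA for one-colour arrays. The deposited values are log2 signals of 45101 probe sets, as judged from their range of 3.227 to 15.355. Their software, probe summary and normalization were not given in the sources used here. Array medians ran from 6.514 to 6.651, a range over the limit of 0.1, so values were quantile normalized with limma 3.58.1 in R 4.3.3. The medians of the Ring1b_KD arrays (6.612, 6.64 and 6.651) lay above those of all other arrays, the highest of which was 6.588. The normalization thus removed a shift that ran with that group. The 64 control probe sets were left out. Quantile normalization removes such shifts whatever their origin. Probe sets were named from the platform annotation (34945 with 1 symbol, 932 with several, 9160 unlisted), and the brightest single-symbol probe set by mean over 9 arrays stood for a gene.

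Group means were fitted to all 9 arrays with lmFit and eBayes with a trend, with two-sided p-values and Benjamini-Hochberg adjustment over 18193 genes. The 3 arrays a group limit the precision. The fit was tested on simulated data. All 7 members matched upstream sequences of RefSeq on GRCm38.p6. The members and gene lists were chosen with earlier results of these data known. Named genes are the members, the targeted genes, up to 4 called genes per list and comparison by smallest adjusted p, and the 5 most like Gzmb. Replicate numbers were checked as pairs. Deviations of same-numbered CBFb_KD and Control arrays correlated over genes at 0.203, 0.377 and 0.2, and those of Ring1b_KD and Control at -0.0677, 0.0436 and 0.153. The labels do not say that the numbers mark pairs, so the reported fit used no block. Alternatives were the values as deposited, median centring, the replicate block, other variance models, 2-group fits, other choices of probe set, a filter on dim genes (under the 25 percentile) and leaving out each array. A sum of T and NK cell markers without Zap70 was added after seeing the data.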

Additional observations from a re-analysis of the deposited data

How the results depend on the processing

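Over 18 alternatives to the reported fit, the values of Gzmb kept their direction in all 3 comparisons, with ranges of -1.68 to -1.0 in CBFb_KD against Control, 2.53 to 3.20 in Ring1b_KD against Control and -4.40 to -4.06 in CBFb_KD against Ring1b_KD. Prtn3 kept its call in CBFb_KD in all 18 (1.32 to 1.54). Ctsg lost its CBFb_KD call in 9 and its Ring1b_KD call in 3, always with the same direction. Tested over all probe sets, it stood at -0.69 in CBFb_KD (limma adjusted p = 0.0587), with probe sets of a gene averaged at an adjusted p of 0.0528, and with a robust variance at 0.076 in CBFb_KD and 0.0507 in Ring1b_KD. The called members other than Gzmb then numbered 1 in CBFb_KD under each of these 3 settings and 0 in Ring1b_KD with the robust variance. Leaving out 1 array, they numbered 1 to 2 in CBFb_KD and 0 to 1 in Ring1b_KD. With the replicate block, which pairs arrays of all 3 groups by number, 2 members were called in CBFb_KD and 1 in Ring1b_KD. No member's call changed, and Ctsg had a limma adjusted p of 0.00178 in CBFb_KD and 0.00132 in Ring1b_KD. Over all genes 3142 were called in CBFb_KD against Control, 2611 in Ring1b_KD against Control and 3938 in CBFb_KD against Ring1b_KD. The block also called 3 inhibitors in Ring1b_KD against Control and, between the knockdowns, 5 inhibitors and 4 cluster neighbours. Same-numbered CBFb_KD and Ring1b_KD arrays correlated at 0.0454, 0.104 and -0.0377, and 8 of 9 arrays correlated best with an array of their own number, a hint from the data and not the design. Leaving out 1 array, the count over all genes ran from 1751 (without Control array 3) to 2995 in CBFb_KD against Control, from 1139 (without Control array 3) to 2365 in Ring1b_KD against Control, and from 2377 to 3564 between the knockdowns. It was 1849 without CBFb_KD array 2 and 1225 in Ring1b_KD without Control array 2. Testing all 45037 probe sets called 4342, 3820 and 6033. Of 375 member values recomputed under the alternatives, 16 that were not called changed sign. Up to 4 called genes per list and comparison, by smallest adjusted p, were followed through the alternatives. Of these 58 called values, 43 kept their call in all alternatives run and 15 lost it in at least 1. Called list genes with larger adjusted p were not followed gene by gene, so this share does not cover them. The low signal of Gzma, Prf1, Elane and Mpo limits what these arrays can show of them.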
